A study of Mus musculus with 94 samples.

Results

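The genes described here were 10 regulators of blood stem and progenitor cells, Flt3, Myb, Sox4, Meis1, Hoxa9, Erg, Lmo2, Adgrg1, Myc and Mycn, out of 46078 gene identifiers in the count table. They were chosen by name and matched to the table through their Ensembl identifiers, and each symbol matched a single identifier. Of the 10 genes, 8 had a read in at least 10 kept cells, and Flt3 and Mycn did not. They were measured by RNA sequencing in single basophils, granulocytes that bind IgE through FcεRI, sorted from the marrow of 3 female mice of the C57BL/6 strain. Both gates took live cells that were negative for lineage markers and Sca1 and positive for FcεRI. They differed in surface CD34, with 47 CD34-positive (CD34+) and 47 CD34-negative (CD34-) cells, each sequenced as a library of its own. The labels name no age, treatment or genetic change. A gate is a window of surface staining and not a lineage trace, and the mouse that each cell came from is not given. Each gate was therefore counted as 1 sample, no test could be run, and the intervals below cover counting error only.

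As background, blood stem and progenitor cells keep a set of transcription factors active that is shut down as cells mature, and growth factor receptors on their surface tie them to the marrow. MYB, the HOXA9 and MEIS1 homeodomain pair, and the complex that LMO2 forms with ERG, GATA2 and RUNX1 are best known from stem cells, early progenitors and leukaemia. Basophils arise in the marrow from granulocyte progenitors through a precursor that still carries CD34.

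After the low-depth cells were left out (1 per gate), 46 cells remained in each gate, with medians of 737059 gene reads in the CD34- and 633178 in the CD34+ gate and a range of 262944 to 1154738. The basophil genes Mcpt8, Prss34, Fcer1a, Ms4a2 and Gata2 had reads in 46 of 46 cells of both gates, but cell 10 of the CD34- gate stood apart. It had 1 read of Gata2, 2 of Fcer1a and 2 of Ms4a2, and at 12273 CPM (counts per 1000000 gene reads) of Cd74 and 966 CPM of Csf1r, genes of antigen-presenting cells and monocytes, it went against the basophil label. Without it the lowest CD34- levels were 929 CPM of Gata2, 223 CPM of Fcer1a and 481 CPM of Ms4a2. Its protease levels, 118 CPM of Prss34 and 45.6 CPM of Mcpt8, were low but not the lowest of the gate. Of the regulators it had a single read, of Myc. Cd34, the gene of the sorted protein, had 7 reads in the CD34- and 1799 in the CD34+ gate. Some genes that define other lineages were at 0 reads, among them Mcpt1 and Mrgprb1 of mast cells, Ltf and Camp of neutrophils, Car1 and Hba-a1 of erythroid cells, Pf4 of platelets and their precursors, and Cd3g of T cells, while other genes of the same lists had reads. Of the mast cell genes Tpsab1 had 1 read in the CD34- and 150 in the CD34+ gate. Of the T and innate lymphoid genes Nkg7 was at 78.6 and 696 CPM and Il7r at 166 and 26.4 CPM, and of the B cell genes Cd79b was at 49.0 and 45.6 CPM. Summed over 8 erythroid markers, cells ranged from 0 to 31.2 CPM in the CD34- gate and from 0 to 359 CPM in the CD34+ gate, and over 8 neutrophil markers from 0 to 235 and from 0 to 472 CPM. In each of these lists 1 of 8 genes was higher past a log2 fold of 1. The sums over 9 mast cell markers ranged from 3.69 to 2150 CPM in the CD34- gate and from 49.0 to 1185 CPM in the CD34+ gate, nearly all from Slc18a2, at 521 and 494 CPM, with 4 of the 9 at 0. The B cell sums ranged from 0 to 506 and from 0 to 590.4 CPM, those of T and innate lymphoid cells from 0 to 1568 and from 11.7 to 2192 CPM, and those of eosinophils from 0 to 1099 and from 0 to 1496 CPM. Of 6 early progenitor genes (Cd34, Kit, Mpo, Ctsg, Elane and Prtn3) all were higher, with a median fold of 4.38, and summed they ranged from 0 to 4327 CPM and from 137 to 22238 CPM. Of 9 basophil genes, 3 were higher (Mcpt8, Prss34 and Cpa3) and 2 were lower (Itga2 and Cd200r3). With ERCC scaling 5 of the 9 were higher and none was lower, where 51.8% and 2.25% of all genes were. Past the filter on low reads, the T and innate lymphoid list had 2 genes higher and 1 lower, the B cell list 1 lower, and the mast cell and eosinophil lists none. The dendritic cell and monocyte list had 1 lower, Ccr2, at 493 and 40.5 CPM, found in 38 CD34- and 12 CD34+ cells. The Ccr2 fold was -3.57, and -2.62 with ERCC scaling. Summed over 8 dendritic cell and monocyte markers the ranges were 0 to 15041 CPM and 0 to 1195 CPM, and the highest CD34- sum was 1709 CPM without cell 10. Cells of the CD34+ gate held more genes at equal depth, with a median of 6515 against 4523 at 200000 drawn gene reads, and more gene reads per read of the added ERCC control RNA, at 14.4 against 6.87. The part of these markers and measures in the differences below was not tested. Cell 1 of the CD34+ gate had the lowest Prss34 level of its gate, at 50.1 CPM where the median was 59397. It also had the highest share of ambiguous reads, at 49.0%. It was not alone in these traits. Without it the lowest CD34+ level of Prss34 was 217 CPM, and cell 2 of the CD34+ gate had 41.5% ambiguous reads. Cell 10 of the CD34- gate and cell 1 of the CD34+ gate kept their sort labels. Results that rest on them are given with and without them.

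Sox4 and Myb had the largest log2 folds of CPM plus 1, so their upstream sequences are shown. By the plain ratio of summed levels Hoxa9, at 5.75, and Myb, at 5.72, could not be ordered. Both come from RefSeq promoter windows on GRCm38.p6, which held 8 of the 10 genes (all but Lmo2 and Myc), and both end at the base before the annotated start of the gene. The Myb window is chr10:21160985-21161234 and the Sox4 window is chr13:28953714-28953949, both on the minus strand and read 5′ to 3′. Capitals mark the GC box (GGGCGG) and the CCAAT box (CCAAT) on either strand.
Myb: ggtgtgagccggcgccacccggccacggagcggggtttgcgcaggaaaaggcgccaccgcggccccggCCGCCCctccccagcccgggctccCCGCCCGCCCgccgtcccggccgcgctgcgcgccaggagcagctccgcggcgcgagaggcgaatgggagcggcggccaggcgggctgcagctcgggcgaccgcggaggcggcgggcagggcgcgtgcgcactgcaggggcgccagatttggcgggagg
Sox4: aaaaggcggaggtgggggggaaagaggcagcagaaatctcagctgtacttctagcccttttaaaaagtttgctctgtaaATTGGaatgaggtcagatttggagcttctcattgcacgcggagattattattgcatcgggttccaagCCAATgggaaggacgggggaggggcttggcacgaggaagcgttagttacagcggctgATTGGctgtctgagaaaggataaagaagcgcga

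The Myb stretch was 81.2% G and C and held 3 GC boxes, all on the opposite strand, with the last pair overlapping. Its base composition stood above the median of 52.4% over 32851 RefSeq windows. The Sox4 stretch was 50.0% G and C and held 3 CCAAT boxes and no GC box. A GC box occurred in 32.7% of all windows and a CCAAT box in 33.8%. The letters of a GATA site (AGATAA), a RUNX site (TGTGGT), an ETS site (CCGGAAG), an E-box (CACGTG) and a MYB site (AACGG) were not found in either stretch. Matches describe these letters only.

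Across the 10 genes, 4 were higher in the CD34+ gate by a log2 fold of at least 1 in summed reads, namely Sox4, Myb, Hoxa9 and Myc, and none was lower by that much. Of the 12460 genes that passed the filter of reads in 10 or more kept cells, 21.7% were higher and 10.1% were lower by the same rule. The log2 fold compares CPM plus a pseudocount of 1, CD34+ over CD34-. Its median was 0.53 over the 10 genes and 0.19 over the 12460 genes, whose SD was 1.16. The lower and upper counting bounds of the 10 genes had medians of 0.33 and 0.78, which do not form an interval for the median fold itself. Flt3 and Mycn did not pass that filter, and over the 8 regulators that did the median was 0.81, a description only, since a gene could pass through its higher gate alone. Over the 24936 genes with any read, which hold all 10 regulators, 15.9% were higher, 8.29% were lower and the median was 0.05. With Flt3, which had no read in the CD34- gate, set to its lower bound, 5 genes were past the fold and the median became 0.81. Sox4, Myb and Hoxa9 lay more than 1 SD above the median of all genes. Without cell 1 of the CD34+ gate, 3 genes were past the fold, since Myc dropped out. Without cell 10 of the CD34- gate, 4 were higher, none was lower and the median was 0.52. With ERCC scaling 7 were higher and none was lower, where 51.8% of all genes were higher and 2.25% were lower.

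**Figure D1:**
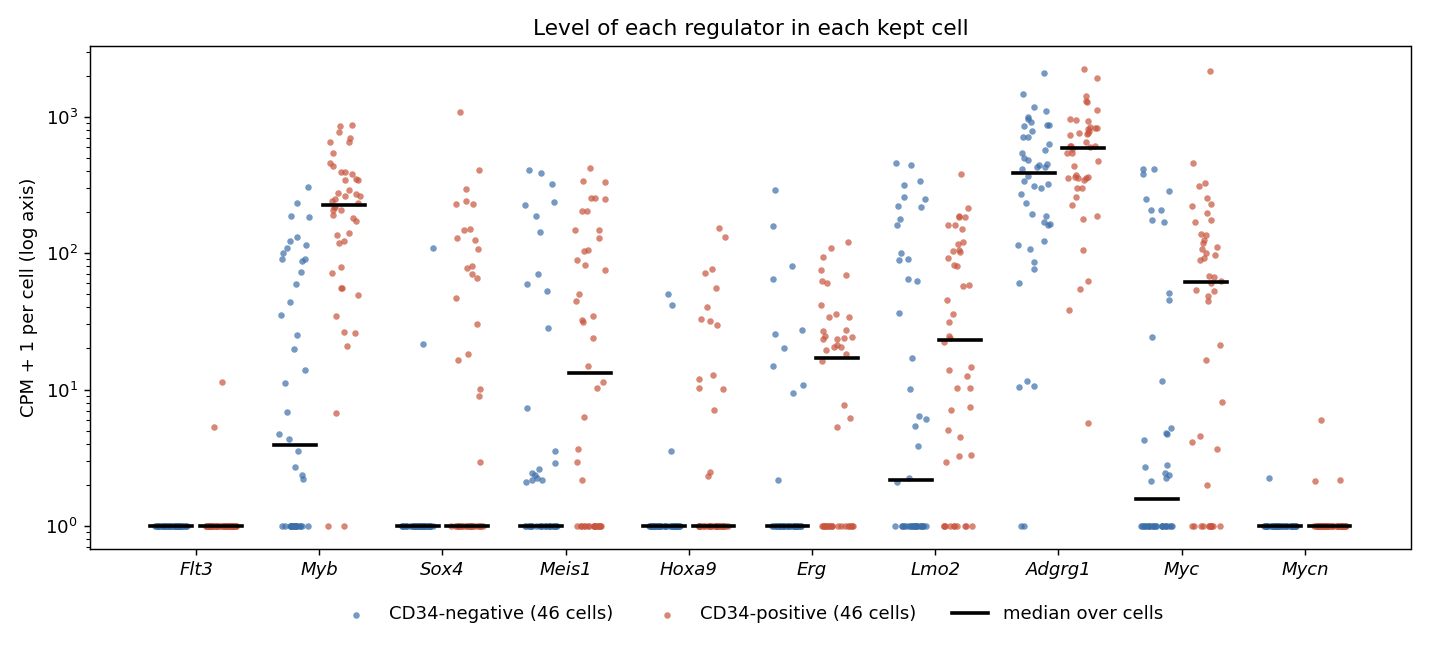
Level of each regulator in each kept cell, as CPM plus 1 on a log axis, for 46 CD34- (blue) and 46 CD34+ (red) cells, with the median over cells as a black line. Myb lay at a median of 224 CPM in CD34+ and 2.95 in CD34- cells, while Sox4 and Hoxa9 had a median of 0 in both gates and Adgrg1 was high in nearly all cells.

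The receptor genes of the set were Flt3 and Adgrg1. Flt3 (ENSMUSG00000042817, chr5:147330741-147400489 on GRCm38, minus strand) encodes a receptor kinase of early multipotent, lymphoid and dendritic progenitors. It had 0 reads in the 46 CD34- cells, which allows a share of cells with a read of up to 6.52% by the limit of 3 counts, and up to 7.71% by the exact binomial bound. In the CD34+ gate it had 13 reads, 10 in cell 43 and 3 in cell 37, and the other cells had none. The summed level was 0.433 CPM (0.230 to 0.740) in the CD34+ gate, at least 4.83-fold above the floor of 3 reads over the CD34- gate. Set against the counting intervals of both gates, the lower bound of the ratio was 2.09. That ratio rests on cell 43. Without the filter on cells the log2 fold was -0.18, since CD34- cell 20, left out for low depth, had 21 Flt3 reads. Flt3 and Mycn, at 0 and 1 reads, were the lowest of the 10 genes in CD34- cells and could not be ordered. Neither Flt3-positive cell had a read of Kit, a receptor of the same family that marks other progenitors.

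Adgrg1 (ENSMUSG00000031785, chr8:94974751-95014217, plus strand) encodes the adhesion receptor GPR56, known from blood stem cells and cytotoxic lymphocytes. Its level ranged from 0 to 2079 CPM over CD34- cells, with a median of 387, and from 4.66 to 2243 CPM over CD34+ cells, with a median of 592. The gates overlapped over nearly their whole range, and the spread between cells was wide, at an SD of 434 and 464 CPM. At 200000 drawn gene reads, Adgrg1 was found in 44 of 46 CD34- and 46 of 46 CD34+ cells. The summed levels were 489.6 CPM (482 to 497) and 615 CPM (606 to 624), a log2 fold of 0.33 (0.29 to 0.37). The difference was small against the spread between cells, and it became 0.27 without cell 1 of the CD34+ gate, 0.09 with scran size factors, 0.56 with TMM factors and 1.29, past the threshold, with ERCC scaling. Adgrg1 was the most abundant of the 10 genes per length in both gates, at 90.3 and 114 RPKM (CPM per kilobase of exon).

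Myb and Sox4 are transcription factors of immature blood cells. Myb (ENSMUSG00000019982, chr10:21124935-21160984, minus strand) encodes a DNA-binding activator that is needed for blood formation in the adult and is usually turned off as myeloid cells mature. Over CD34- cells it ranged from 0 to 306 CPM with a median of 2.95, and over CD34+ cells from 0 to 869 CPM with a median of 224. The upper CD34- cells overlapped the CD34+ ones, but most CD34- cells lay below nearly all of the CD34+ cells. Drawn to equal depth, Myb was found in 24 of 46 CD34- cells, or 52.2% (exact binomial interval 36.9% to 67.1%), and in 44 of 46 CD34+ cells, or 95.7% (85.2% to 99.5%). The difference in level was also present among the cells with a read, whose medians were 58.2 and 237 CPM. The summed levels were 44.3 CPM (42.1 to 46.6) and 253 CPM (248 to 259), a log2 fold of 2.49 (2.38 to 2.59). No single cell carried the Myb difference: the cell with most reads held 16.1% of the CD34- and 8.28% of the CD34+ reads, and leaving out each cell in turn gave folds of 2.40 to 2.70.

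Myb varied within each gate as well. Its level per cell had a Spearman correlation of 0.50 with the number of genes found at equal depth, in CD34- and in CD34+ cells alike (n = 46 cells each). With Prss34, the basophil protease gene, the correlation was 0.59 in the CD34- and -0.42 in the CD34+ gate, and with Mcpt8 it was 0.59 and -0.34. So among CD34- cells Myb was higher in cells with more protease RNA, and among CD34+ cells it was lower in them. With Mpo, a granule gene of granulocyte progenitors, it was positive in both gates, at 0.41 and 0.42. Without cell 10 of the CD34- gate the first was 0.53, and those with Prss34 and Mcpt8 were both 0.57. Without cell 1 of the CD34+ gate they were 0.51, -0.45 and -0.36. These correlations are across cells of unknown mice that share library depth and complexity, and they are given as descriptions.

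Sox4 (ENSMUSG00000076431, chr13:28948919-28953713, minus strand) encodes an HMG-box factor of progenitors in many tissues. It showed the largest fold of the set. Only 2 CD34- cells had a Sox4 read, with a highest level of 108 CPM, while 22 CD34+ cells had reads and reached 1076 CPM, and the median was 0 in both gates. The 24 CD34+ cells without a Sox4 read overlapped the CD34- cells. The shares at equal depth were 4.35% (0.531% to 14.8%) and 47.8% (32.9% to 63.1%). The summed levels were 2.84 CPM (2.30 to 3.47) and 77.9 CPM (74.8 to 81.1), a ratio of 27.4 (21.5 to 35.3) and a log2 fold of 4.36 (4.08 to 4.64). Single cells weighed heavily on both sides. Cell 31 held 81.1% of the CD34- reads and cell 1 held 27.6% of the CD34+ reads. The fold was 5.67 without cell 31 and 3.93 without cell 1. The antisense gene Gm26735 covers 54.6% of the exon bases of Sox4 in the GENCODE M21 annotation, and it had 0 reads. The strand setting of the counting is not given in the sources used here, and whether reads from these bases were set aside as ambiguous was not tested.

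**Figure D2:**
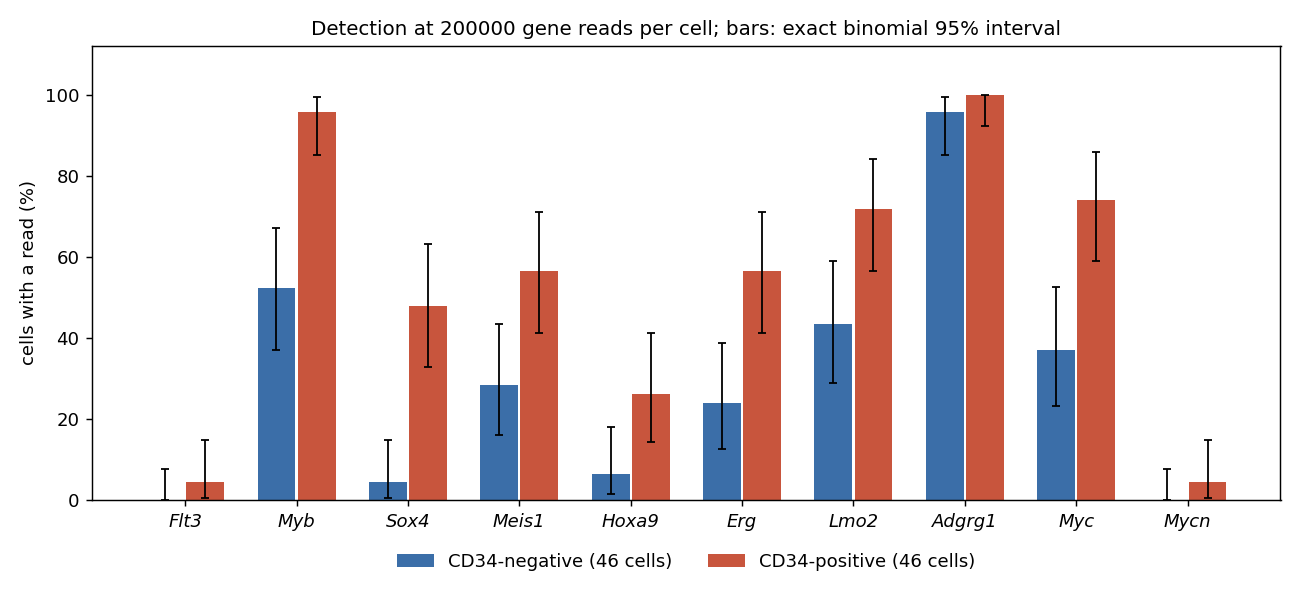
Share of the 46 kept cells of each gate with a read of each regulator at 200000 drawn gene reads per cell, in percent, with exact binomial intervals. The shares of Sox4 were 4.35% in CD34- (blue) and 47.8% in CD34+ cells (red), and those of Adgrg1 were 95.7% and 100%.

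Meis1 and Hoxa9 encode homeodomain proteins that bind DNA together and are co-expressed in stem cells and in acute leukaemias. Meis1 (ENSMUSG00000020160, chr11:18879817-19018985, minus strand) ranged from 0 to 406 CPM over CD34- cells and from 0 to 423 CPM over CD34+ cells, with medians of 0 and 12.1. The ranges were nearly the same and the gates differed in how many cells had a read. Meis1 was found in 13 of 46 CD34- cells, or 28.3% (15.99% to 43.5%), and in 26 of 46 CD34+ cells, or 56.5% (41.1% to 71.1%). The summed levels were 49.3 CPM (47.0 to 51.8) and 69.0 CPM (66.1 to 72.1), a log2 fold of 0.48 (0.35 to 0.61) that did not reach the threshold but was 1.43 with ERCC scaling. Without cell 21 of the CD34- gate, which held 19.9% of the CD34- reads, the fold was 0.75. It was 0.33 without cell 17 of the CD34+ gate. Exons of Gm37818 and Gm16140 share 18.3% of the Meis1 exon bases, and these genes had 238 and 0 reads.

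Hoxa9 (ENSMUSG00000038227, chr6:52223100-52231089, minus strand) was sparser. It had reads in 3 CD34- cells, at 38 reads in cell 30, 35 in cell 31 and 1 in cell 41. In the CD34+ gate it had reads in 16 cells, with a median of 0 and a highest level of 152 CPM. At equal depth the shares were 6.52% (1.37% to 17.9%) and 26.1% (14.3% to 41.1%). The summed levels of 2.21 CPM (1.74 to 2.78) and 12.7 CPM (11.5 to 14.1) gave a log2 fold of 2.09 (1.72 to 2.46). Without cell 30 of the CD34- gate it was 2.70. Because both levels were low, a pseudocount of 10 CPM lowered the fold to 0.90, under the threshold.

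Among 17 other genes of the HOXA, MEIS and PBX families and the chromatin factors that keep them active, 11 passed the filter. Of these, 4 were higher and 3 were lower, where 21.7% and 10.1% of all genes were, and the median fold was 0.06. The 4 with the highest CPM in either gate, a measure not corrected for gene length, were Kmt2a, which encodes a histone methyltransferase, at 412 CPM in CD34- and 173 CPM in CD34+ cells, the methyltransferase gene Dot1l at 35.7 and 102 CPM, Pbx4 at 13.96 and 60.5 CPM and Psip1 at 47.4 and 59.9 CPM. Kmt2a was lower past the fold, at -1.25, but not with ERCC scaling, at -0.29. The others past the lower fold were Hoxb4, at -1.59, and Mllt3, at -1.61, which became -0.76 and -0.69 with ERCC scaling. Of the 11, those past the upper fold were Dot1l, Pbx4, Pbx3 and Hoxa7. With ERCC scaling 6 of the list were higher and none was lower, where 51.8% and 2.25% of all genes were. Hoxa7, the neighbour of Hoxa9 in the HOXA cluster, was picked out after its values were seen. It had 2 reads in the CD34- gate and 770 in the CD34+ gate, a ratio of 429 (110 to 3799), and was found in 0 and 17 cells at equal depth.

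Erg and Lmo2 belong to the group of factors that occupy stem cell enhancers together. Erg (ENSMUSG00000040732, chr16:95359169-95586593, minus strand) encodes an ETS factor that stem cells depend on. It ranged from 0 to 289 CPM over CD34- cells with a median of 0, and from 0 to 119 CPM over CD34+ cells with a median of 16.1. The highest Erg level was therefore in a CD34- cell, although more CD34+ cells had reads. At equal depth it was found in 11 of 46 cells, or 23.9% (12.6% to 38.8%), against 26 of 46, or 56.5% (41.1% to 71.1%). The summed levels of 15.3 CPM (14.04 to 16.7) and 22.8 CPM (21.1 to 24.5) gave a log2 fold of 0.54 (0.32 to 0.76). Cell 23 held 49.1% of the CD34- Erg reads, and without it the fold was 1.40, past the threshold, as it was with ERCC scaling, at 1.46. Restricted to the cells numbered 7 to 42 in their titles, the fold was -0.21.

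Lmo2 (ENSMUSG00000032698, chr2:103957986-103981878, plus strand) encodes an adaptor that bridges TAL1 and GATA factors. It ranged from 0 to 457 CPM over CD34- cells with a median of 1.16, and from 0 to 377 CPM over CD34+ cells with a median of 22.05. Lmo2 was found in 20 of 46 CD34- cells, or 43.5% (28.9% to 58.9%), and in 33 of 46 CD34+ cells, or 71.7% (56.5% to 84.0%). In the cells with reads the order was the opposite, with medians of 89.0 CPM in CD34- and 50.5 CPM in CD34+ cells. The summed level was accordingly lower in the CD34+ gate, at 56.0 CPM (53.4 to 58.7) against 71.0 CPM (68.2 to 73.9). Its log2 fold of -0.34 (-0.46 to -0.21) was the only negative fold of the set, and it turned to 0.62 with ERCC scaling. The fold was -0.12 without cell 24 of the CD34- gate, -0.53 without cell 23 of the CD34+ gate and -0.10 with TMM factors. More cells with fewer Lmo2 reads each set it apart from Myb, which was higher in share and in level.

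The 10 other genes of the LMO2 complex and its partners at stem cell enhancers had a median fold of 0.11. Of these, 2 were higher (Tcf12 and Zfpm1) and none was lower, where 21.7% and 10.1% of all genes were. Gata2, a basophil and stem cell factor, stood at 2889 CPM in CD34- and 1919 CPM in CD34+ cells, and its fold of -0.59 became 0.38 with ERCC scaling. Runx1, at 955 and 996 CPM, Fli1, at 261 and 283 CPM, and the corepressor gene Cbfa2t3, at 171 and 215 CPM, had folds of 0.06, 0.11 and 0.33. With ERCC scaling these were 1.03, 1.08 and 1.29, and 7 of the 10 genes were higher, where 51.8% of all genes were. Of 8 other ETS genes, Etv6 was the only one higher, at 62.3 and 171 CPM, and 2 were lower, Spi1 and Ets2. The 4 with the highest CPM in either gate were Ets1, at 604 and 678 CPM, Spi1, which encodes the myeloid factor PU.1, at 341 and 130 CPM, Elf4 at 318 and 208 CPM, and Fli1. With ERCC scaling 4 ETS genes were higher and none was lower, where 51.8% and 2.25% of all genes were. Spi1 had a fold of -1.38, and -0.42 with ERCC scaling, which differed in sign from that of Erg.

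**Figure D3:**
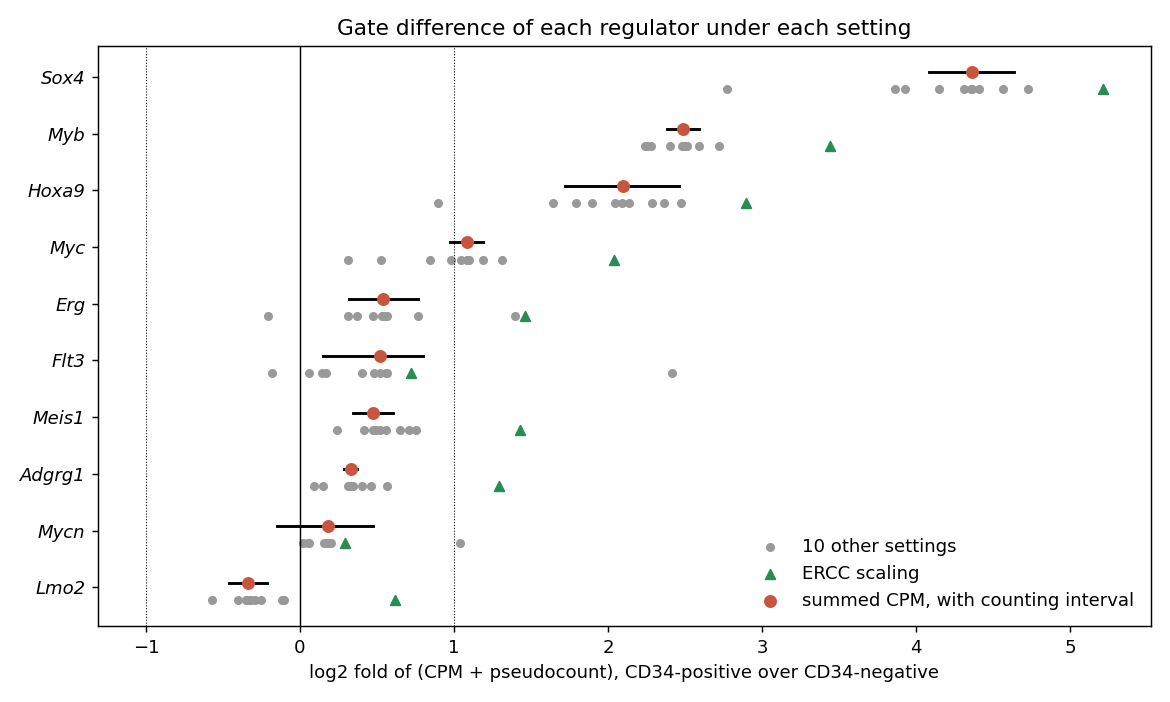
Log2 fold of each regulator, CD34+ over CD34-, with its counting interval (red point and bar), under ERCC scaling (green triangle) and under 10 other settings (grey points). Dotted lines mark a log2 fold of 1 and -1. Sox4 and Myb lay past the upper line under every setting, and Lmo2 was above 0 only with ERCC scaling.

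Myc and Mycn encode related factors that dimerise with MAX and drive growth and ribosome synthesis. Myc (ENSMUSG00000022346, chr15:61985391-61990374, plus strand) ranged from 0 to 414 CPM over CD34- cells with a median of 0.566, and from 0 to 2146 CPM over CD34+ cells with a median of 60.3. The highest CD34+ value was that of cell 1. Cell 15, at 458 CPM, was also above the highest CD34- cell, and the other CD34+ cells overlapped the CD34- ones. Myc was found in 17 of 46 CD34- cells, or 36.96% (23.2% to 52.5%), and in 34 of 46 CD34+ cells, or 73.9% (58.9% to 85.7%). The summed levels of 59.5 CPM (56.9 to 62.2) and 127 CPM (123 to 131) gave a log2 fold of 1.08 (0.97 to 1.19). Cell 1 held 33.7% of the CD34+ Myc reads, and without it the fold was 0.52, under the threshold. It was also under it with scran size factors, at 0.84, with a pseudocount of 10 CPM, at 0.98, and in the cells numbered 7 to 42, at 0.31.

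Mycn (ENSMUSG00000037169, chr12:12936093-12941914, minus strand) was nearly without reads. It had 1 read in the CD34- and 5 in the CD34+ gate, 3 of them in cell 1, and the ratio of 5.57 had a counting interval of 0.324 to 513. No difference in Mycn was detectable at this depth.

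Of 11 genes commonly listed as MYC targets, all passed the filter, 7 were higher and none was lower, where 21.7% and 10.1% of all genes were, and the median fold was 1.24. With ERCC scaling 10 were higher, where 51.8% of all genes were, and with scran size factors 6 were. The 4 with the highest CPM in either gate were Ldha, the glycolysis enzyme, at 562 and 523 CPM, Ncl, the nucleolar protein nucleolin, at 172 and 368 CPM, Cdk4 at 59.6 and 227 CPM and Npm1, another nucleolar protein, at 70.3 and 168 CPM. Without cell 1 of the CD34+ gate, the count was also 7 and the median was 1.17. Of 9 other genes of the MYC and MAX network past the filter, 1 was higher (Mxd3) and 3 were lower, with a median of -0.44 that became 0.52 with ERCC scaling. Mxd1, which encodes a MAX partner that opposes MYC, stood at 567 and 159 CPM with a fold of -1.83, and -0.86 with ERCC scaling. Mxi1, another such partner, was at 163 and 63.3 CPM, Max itself was at 98.7 and 30.5 CPM, and Mlxip was at 378 and 278 CPM. Mga was at 102 and 110 CPM. Mxd1, Mxi1 and Max were the 3 genes past the lower fold, and with ERCC scaling none was.

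Levels of the regulators were compared with each other per length, as RPKM. In CD34- cells Adgrg1 led at 90.3 RPKM, followed by Lmo2 at 32.8, Myc at 21.9, Myb at 4.96, Meis1 at 4.68 and Erg at 4.43. In CD34+ cells Adgrg1 was followed by Myc at 46.8 RPKM, Myb at 28.3, Lmo2 at 25.9, Sox4 at 16.2, Erg at 6.57 and Meis1 at 6.55. Hoxa9, at 0.397 and 2.28 RPKM, Mycn and Flt3 were the lowest in the CD34+ gate. Neighbours such as Erg and Meis1 cannot be ordered, since their levels differed by far less than the spread between cells.

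Counted per cell at equal depth, CD34- cells had reads of 1 to 8 of the 10 genes, with a median of 3 (mean 2.91, SD 1.28, n = 46 cells). CD34+ cells had reads of 2 to 8, with a median of 5 (mean 5.37, SD 1.66, n = 46). The ranges overlapped, mainly between 2 and 4 genes. Reads of 5 or more of the genes were present in 2 CD34- and 32 CD34+ cells. Over single genes, the share of cells with a read was higher in the CD34+ gate by a median of 28.3 percentage points, against 13.04 points over the 12460 genes of the filter. The number of regulators found followed the number of all genes found, with a Spearman correlation of 0.46 in both gates (n = 46 cells each).

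**Figure D4:**
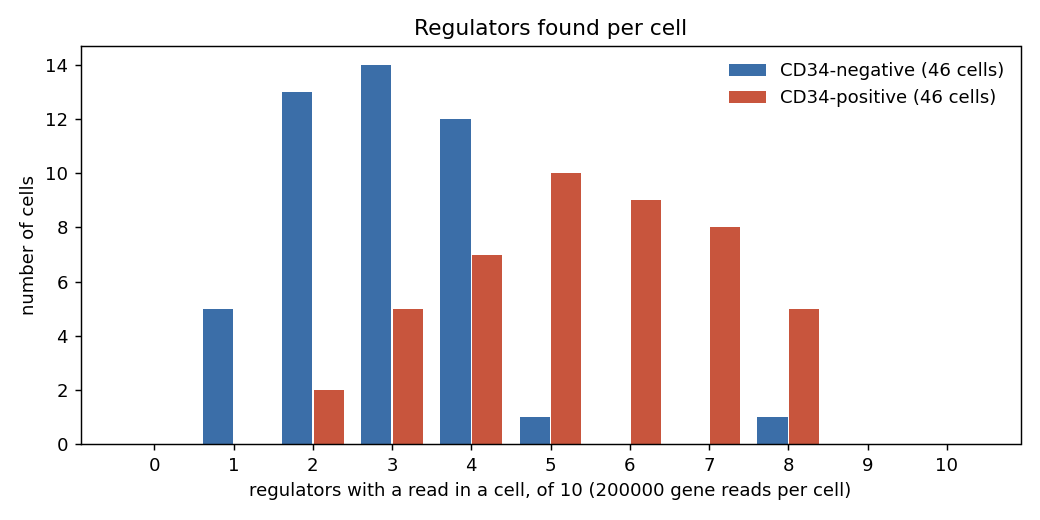
Number of kept cells (vertical axis) by how many of the 10 regulators had a read at 200000 drawn gene reads (horizontal axis), for CD34- (blue) and CD34+ cells (red). The CD34- cells centred on 3 and the CD34+ cells on 5, and a single CD34- cell had 8.

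The CD34- cell with 8 regulators was cell 31. It had 77 reads of Sox4, 35 of Hoxa9, 81 of Myb, 37 of Meis1, 179 of Lmo2, 228 of Adgrg1, 7 of Erg and 3 of Myc. It also had 724 CPM of Mpo where the gate's median was 1.28, 1991 CPM of Ctsg where it was 4.45, and 1139 CPM of Cdk6 where it was 49.5. Prss34 was at 57184 CPM, near the median of the CD34+ gate. The cell had 2 Cd34 reads and no Kit read. It was sorted as CD34-, and its sort label was kept.

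Within the CD34+ gate the regulators were found together to different degrees. All 22 cells with Sox4, all 12 with Hoxa9, all 26 with Meis1 and all 26 with Erg also had Myb, which was found in 44 of the 46 cells. Sox4 and Hoxa9 were found together in 10 cells, which is 45.5% of the Sox4 cells and 83.3% of the Hoxa9 cells. Sox4 and Kit were found together in 15 cells, 68.2% of the Sox4 cells and 65.2% of the 23 Kit cells. Of 21 pairs among the 7 genes with reads in at least 20 of these cells, 4 had a Spearman correlation of at least 0.4: Sox4 with Adgrg1 at 0.52, Myb with Sox4 at 0.50, Myb with Meis1 at 0.45 and Erg with Adgrg1 at 0.41. Without cell 1 these 4 were 0.49, 0.54, 0.45 and 0.47 in the same order. The median over all 21 pairs was 0.22. The pairs with Lmo2 lay between -0.09 and 0.20. Myb and Kit correlated at 0.54 and Myb and Cdk6 at 0.53 (n = 46 cells that share depth and complexity).

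In CD34+ cells, the genes most like each regulator were taken by the highest Spearman correlation over 46 cells among 7826 candidates. For Myb these were Lmo4 at 0.66, 4930519L02Rik at 0.63 and Bcl11a at 0.63, and all 3 were also higher in the CD34+ gate, by log2 folds of 1.30, 3.89 and 1.72. For Meis1 they were Pde6d at 0.60, Auts2 at 0.59 and Impdh1 at 0.58. The Myc list held Tmem14c at 0.60, Pigb at 0.58 and Stt3a at 0.57. Lmo2 was most like Srsf5 at 0.57, Ogt at 0.53 and Araf at 0.50, and Erg was most like Rps27a at 0.52, Cant1 at 0.51 and Atp10a at 0.51. Lists for Sox4 (Gm16580 at 0.72, Gm8276 at 0.70 and Plscr3 at 0.70) and Adgrg1 (Rpl3-ps1 at 0.77, Gclm at 0.70 and Morf4l2 at 0.67) were led by processed pseudogenes in the M21 annotation, whose reads can be shared with near-identical copies. Gate folds of the genes most like regulators other than Myb ranged from -1.28 for Cant1 to 3.64 for Auts2. Those of the Sox4 list were 0.26, 0.17 and 0.05. In CD34- cells the correlations of all these pairs ranged from -0.26 to 0.49. These values are the highest of many candidates and carry no test.

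Other genes of the regulators' families and of blood stem cells were followed as lists. Of 86 such genes, 61 passed the filter, 19 were higher and 8 were lower, which is 31.1% and 13.1% against 21.7% and 10.1% of all genes, and their median fold of 0.24 lay near the 0.19 of all genes. With ERCC scaling 38 were higher and none was lower, where 51.8% and 2.25% of all genes were. The counts without that scaling were the same without cell 1 of the CD34+ gate and without cell 10 of the CD34- gate. In the stem cell list, 8 of 17 genes passed, 2 were higher and none was lower. Cdk6, the G1 kinase gene, was at 214 and 1281 CPM, and Angpt1, a stem cell ligand gene, at 48.4 and 219 CPM. Ikzf2 was at 515 and 627 CPM and Hhex at 109 and 75.7 CPM. Esam and Robo4, which stem cells express, had 0 reads in both gates, and Procr had 2 and 1. Tek had 1 and 177 reads and did not pass the filter, and Cd27, with 665 and 1190, and Hlf, with 118 and 208, did not reach the fold. With ERCC scaling 6 of the 8 stem cell genes past the filter were higher. Among adhesion receptors, Adgrg3 was at 551 and 645 CPM, and Adgre5 was at 250 and 195 CPM. Of the 3 genes of that list that passed the filter, Adgrl4, with 197 and 805 reads, was past the fold, at 2.01. Adgre1, with 1529 and 188 reads, and Adgre4, with 41 and 2, had folds of -2.69 and -1.06 but reads in too few cells for the filter. Kit, of the receptor family of Flt3, had 6 and 3279 reads and a fold of 6.55. In the MYB family, Mybl2 had 599 and 961 reads, and in the family of Sox4, Sox11 had 5 and 2 reads and Sox12 none.

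**Figure D5:**
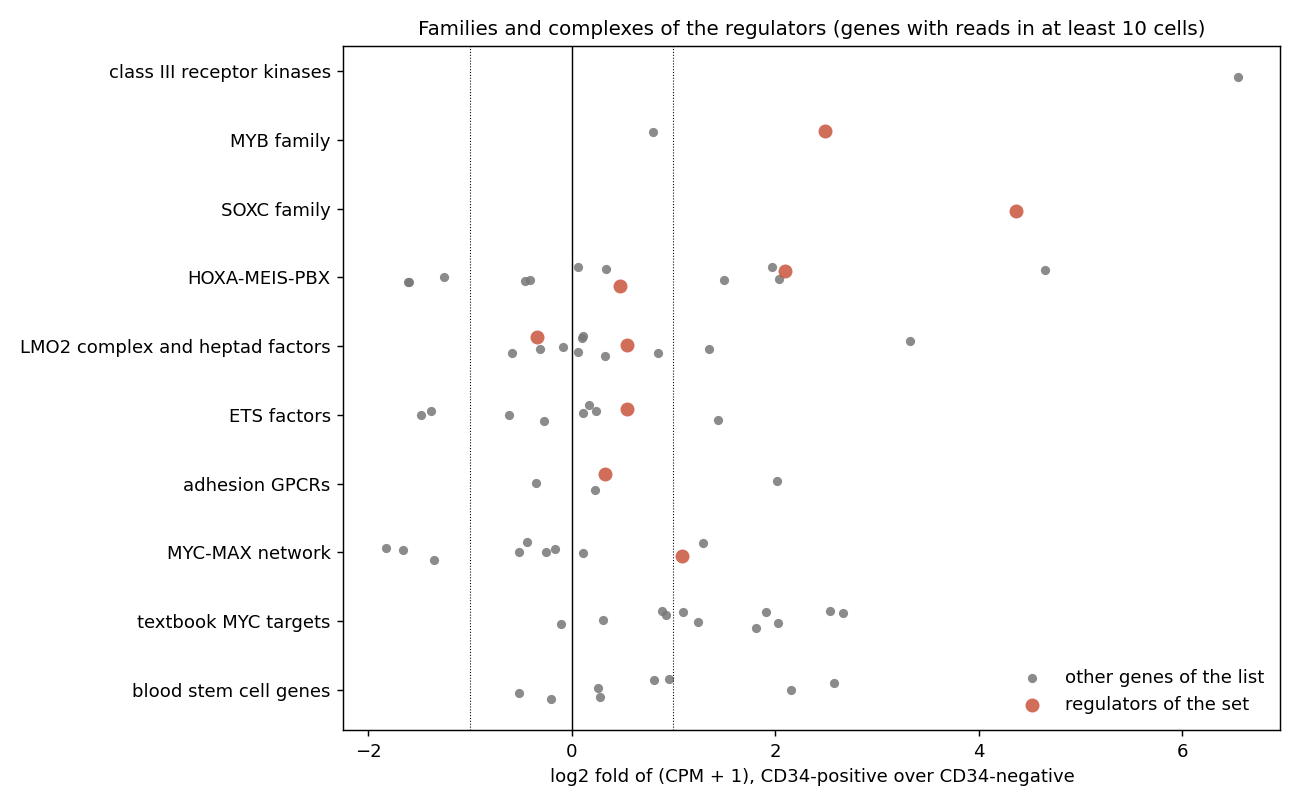
Log2 fold, CD34+ over CD34-, of the regulators (red) and of the other genes of their families and complexes (grey) that passed the filter, by list. Dotted lines mark folds of 1 and -1. Most families spread to both sides of 0, while 7 of 11 textbook MYC targets lay past 1 and none past -1.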

How the data were processed

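The authors deposited 1 table of whole read counts per gene and cell. Reads were aligned with GSNAP and counted with HTSeq 0.5.3p3 on mm10, per the submitters' processing notes, and the order of these steps, the annotation release and the strand setting are not given in the sources used here. Of all reads, 32.4% were in genes, 33.0% in no gene, 7.68% ambiguous, 22.9% not aligned and 3.97% ERCC, and only gene reads entered library sizes. Symbols were matched for 45143 of 46078 identifiers.

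Kept cells had 50000 or more gene reads, 1000 or more genes, under 20% mitochondrial and under 50% ERCC reads. Reads were summed per gate and given as CPM, with exact Poisson intervals for sums and Clopper-Pearson intervals for shares, both at 95%. Fold intervals set the bounds of the gates against each other. There are no molecular identifiers, and counting error is all they cover. Detection used 200000 gene reads drawn per cell. Cells were sorted singly, and no doublet caller or clustering was used. Gene coordinates and exon lengths come from GENCODE M21 (GRCm38).

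The regulators and the lists were chosen with earlier results of these data known. Named genes are all regulators, the 3 genes most correlated with each that had reads in at least 20 CD34+ cells, and up to 4 genes per list with the highest CPM in either gate. Other named genes (marker genes, those behind small counts, those near 0 reads, Max, and those in the closing section) were chosen after their values were seen. The alternatives were no cell filter, mean per-cell CPM, scran 1.30.0 size factors, edgeR 4.0.16 TMM factors, ERCC scaling, scaling without mitochondrial and ribosomal RNA locus genes, pseudocounts of 0.1 and 10 CPM, other filters on cells and genes, and leaving out each cell. Python 3.11.15 and R 4.3.3 were used, and scripts were tested on simulated data.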

Additional observations from a re-analysis of the deposited data

Results flagged for a closer look

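The 2 cells left out for low depth held reads of some regulators, at more than the 3 counts that a count of 0 allows. Cell 3 of the CD34+ gate had 31504 gene reads, among them 15 of Myb, 16 of Adgrg1, 10 of Myc and 5 of Lmo2, or 476, 508, 317 and 159 CPM. The Myb and Adgrg1 levels of this cell lie within the range of the kept CD34+ cells. Cell 20 of the CD34- gate had 24565 gene reads and 67.7% of its reads not aligned. It had 21 reads of Flt3, or 855 CPM (529 to 1307), and none of the other regulators. No kept CD34- cell had a Flt3 read, and the 46 kept CD34+ cells together had 13.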

How the results depend on the processing

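Of 110 alternative values for single regulators (10 genes, 11 alternatives), 66 stayed within the counting interval, 41 moved beyond it and 3 changed sign. The sign changes were Flt3 at -0.18 without the cell filter, Lmo2 at 0.62 with ERCC scaling and Erg at -0.21 in cells numbered 7 to 42. Sox4 and Myb were past the fold under all 11, Hoxa9 under 10 and Myc under 7. The number of regulators past the fold became 7 with ERCC scaling, where 51.8% of all genes were past it, 6 with a pseudocount of 0.1 CPM and 2 with one of 10 CPM. The share of all genes past the fold was not computed for these pseudocounts, so the counts under them cannot be set against it. Leaving out single cells gave 3 to 5 regulators higher and 0 to 0 lower, a median fold of 0.46 to 0.91 and a difference of 2 to 2 regulators per cell. Leaving out CD34- cell 23 gave the highest median, 0.91. The median fold became 1.44 with ERCC scaling, 1.06 with a pseudocount of 0.1 CPM, 0.24 in cells 7 to 42 and 0.81 over genes of at least 10 CPM. The cause of these changes was not tested. No paired analysis was possible because cell numbers only name cells and no test was run. Gates of 1 sample each cannot tell CD34 from mouse, and genes at a few reads, such as Flt3 and Mycn, are limited by depth.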

Other observations

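Some genes of other lineages were picked out after their values were seen. Klf1, an erythroid transcription factor gene, was found in 1 CD34- and 12 CD34+ cells, at 0.748 and 18.6 CPM. Zfpm1, the GATA cofactor FOG1, was found in 3 and 14 cells, at 1.64 and 25.5 CPM. Epor had no read in the CD34- gate and 373 reads in the CD34+ gate, found in 4 cells, while Car1 and the alpha globin genes were at 0. Itga2b, a platelet integrin gene that basophils also express, was at 1444 and 930.4 CPM. Prg2, which encodes a granule protein of eosinophils, had 1443 reads in the CD34+ gate, found in 2 cells, and none in the CD34- gate.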
